A study of Mus musculus with 22 samples.

Results

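Collagens are described here as a gene family, in mRNA of the hippocampal CA1 region of mice fed ad libitum (AL) or under calorie restriction (CR). The family was taken as all rows of the expression matrix whose symbol is Col, a number, the letter a and a number, which gave 44 of 23361 genes. Of these, 42 had a mean of at least 0.1 FPKM (fragments per kilobase of exon, scaled to the mapped fragments of the library, and so a level per transcript length) over all libraries and were tested. Col10a1 (mean 0.0971 FPKM) and Col17a1 (mean 0.0626 FPKM) fell under that filter. The 22 female mice, each the source of 1 library, were crosses of Swiss Webster with a DBA/C57BL6 F1. They formed 4 groups: 5 AL and 5 CR mice at 5 months of age, and 6 AL and 6 CR mice at 15 months. AL mice had the control diet freely. CR mice ate a daily portion reduced in carbohydrates from young adulthood on, so the older CR mice had also been restricted for longer. All mice were perfused with buffer before the tissue was dissected by hand from brain slabs, and all were wild type.

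Collagens are extracellular proteins built of 3 alpha chains wound into a triple helix. Fibrillar chains form the rope-like fibrils of connective tissue, type IV chains form the sheets of basement membranes around vessels and epithelia, and short-chain network collagens form lattices. Other classes decorate fibrils, form beaded filaments, or span the cell membrane. In the brain, most fibrillar collagen lies in the meninges and around larger vessels, basement membrane collagen surrounds capillaries and the choroid plexus, and several transmembrane and fibril-associated collagens are made by neurons.

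Because bulk tissue was sequenced, fewer cells of a type and less RNA per cell cannot be told apart in any of the values below. The median gene had 2.51 to 3.10 FPKM depending on the library, and 3 libraries stood apart by marker lists that contain no collagen. AL replicate 1 at 15 months had a fibroblast and meningeal list score (mean log2(FPKM + 0.1) of 10 genes) of 3.94, against 0.40 to 1.98 in all other libraries. CR replicates 3 and 4 at 5 months had choroid plexus scores (8 genes) of 3.12 and 5.07, against at most 2.07 elsewhere. The summed FPKM of the choroid plexus list was 5.04 to 52.4 in AL and 16.2 to 318 in CR mice at 5 months, and 1.57 to 7.84 and 1.33 to 4.73 at 15 months. With age, 4 of its 8 genes were lower in AL mice at a limma adjusted p under 0.05 (9.97% of all genes). In CR mice 6 of 8 were (2.26% of all genes). Every gene of the list had a negative log2 fold change in both diets, with medians of -2.24 in AL and -3.79 in CR mice. Markers of neighboring regions differed too. A region score, the score of 10 neocortex and subiculum genes minus that of 6 CA1 pyramidal neuron genes, ran from -3.67 to -1.92 in AL and -3.57 to -2.79 in CR mice at 5 months, and from -0.78 to 1.05 and -3.11 to 0.34 at 15 months, so the AL groups did not overlap. No marker of these lists was at 0 in any library. None of the genes of the fibroblast, endothelial, or pericyte and smooth muscle lists (10, 8 and 8 tested) passed the test in either direction in any comparison, and of 8 interneuron genes only Reln did, in AL mice with age (log2 fold change 0.74). The summed FPKM over all libraries was 15.1 to 220.3 for the fibroblast list, 37.7 to 69.96 for the endothelial list, and 41.2 to 123 for the pericyte list. The highest fibroblast sum came from CR replicate 4 at 5 months. Next were AL replicate 1 at 15 months (199) and CR replicate 3 at 5 months (82.9). The part of these cell mixtures in the differences between groups was not tested.

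The most abundant collagen mRNAs in CA1 were Col6a1 (mean 17.5 FPKM over all libraries) and Col25a1 (16.8), ahead of the basement membrane chains Col4a2 (11.3) and Col4a1 (8.83). They were followed by Col19a1 (7.22), Col6a2 (6.79), Col9a3 (6.68), Col11a1 (5.60), Col11a2 (5.48) and Col23a1 (5.35). These 10 members were the ones with a mean of at least 5 FPKM, and 22 reached 1 FPKM. The chains of type I collagen, which dominate most connective tissues, were at only 1.23 (Col1a1) and 1.81 FPKM (Col1a2). Summed over the 44 genes, collagen mRNA was 113 ± 13.5 FPKM (SD, n = 5) in AL and 139 ± 17.9 (n = 5) in CR mice at 5 months, and 141 ± 36.4 (n = 6) and 114 ± 16.3 (n = 6) at 15 months. The ranges of all 4 groups overlapped. The most conspicuous columns of the map of levels are single libraries. AL replicate 1 at 15 months held the highest value of 12 of the 44 members, and in Col1a1, Col1a2, Col3a1 and Col4a6 it lay more than 2-fold above the next library. CR replicate 4 at 5 months did so in Col4a4, Col8a1, Col8a2 and Col9a3.

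**Figure D1:**
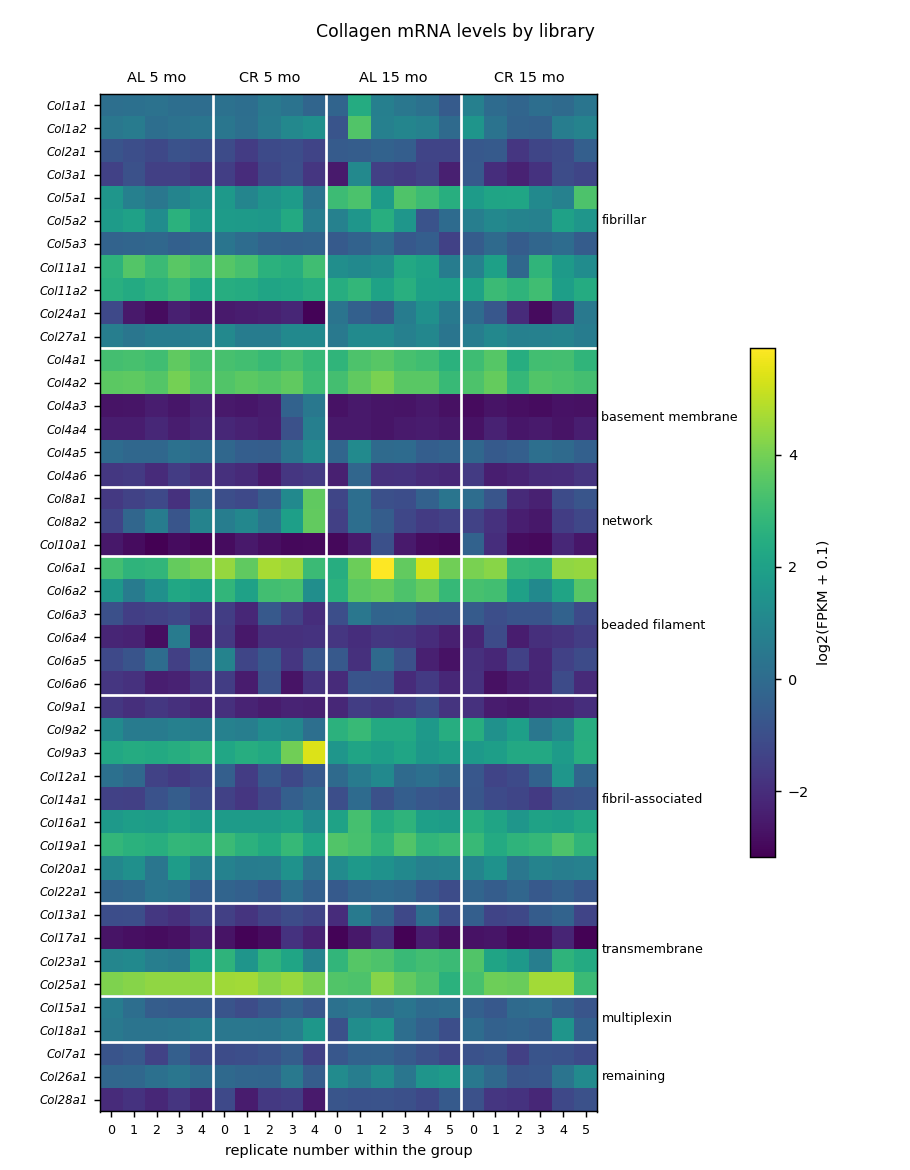
Levels of the 44 collagen genes (rows, by class) in 22 libraries (columns, by group and replicate number) as log2(FPKM + 0.1). Col6a1, Col25a1, Col4a1 and Col4a2 are bright throughout, Col8a1, Col8a2 and Col9a3 are bright in CR replicate 4 at 5 months, and Col1a1, Col1a2 and Col3a1 in AL replicate 1 at 15 months.

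Age was compared first within AL mice, as 15 against 5 months of age. In this comparison 10 of the 42 collagens tested were called by limma at a Benjamini-Hochberg adjusted p under 0.05 (20.6% of all 16978 genes were called). Of these, 8 were higher at 15 months (background 10.7%) and 2 lower (background 9.97%). At an unadjusted p under 0.05 there were 14, a count that cannot be set against these shares, which are for adjusted p. The called share of collagens, 23.8%, was near that of all genes. The 8 that rose were Col24a1, Col23a1, Col5a1, Col6a2, Col9a2, Col28a1, Col26a1 and Col6a3, and the 2 that fell were Col11a1 and Col25a1. All genes tested together gave 1809 higher and 1693 lower, or 1441 higher and 2286 lower after giving every library the same median, an adjustment under which the same 10 collagens were called. By class, 2 of 11 fibrillar genes rose and 1 fell, 2 of 6 beaded filament genes rose, 1 of 9 fibril-associated genes rose, 1 of 3 transmembrane genes rose and 1 fell, and 2 of 3 genes in no larger class rose. None of the 6 basement membrane, 2 network or 2 multiplexin genes was called. The median log2 fold change was 0.23 over the 42 collagens and 0.22 over the fibrillar ones, against -0.0018 over all genes tested. Young and old AL libraries were fully apart in 10 collagens (higher at 15 months in Col5a1, Col24a1, Col6a2, Col9a2, Col23a1, Col26a1 and Col28a1, lower in Col11a1, Col4a4 and Col9a3), against 14% of all genes. Of these, Col4a4 was near the filter in every AL library and passed it only through 2 younger CR libraries. Its separation adds no support for an age difference. In the AL age comparison the region score rose, and 4 of the 6 CA1 genes were called lower. Of the 10 neocortex and subiculum genes 5 were called higher and 1 lower. These values belong beside every AL age difference below.

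Among CR mice, 2 of the 42 collagens were called between 15 and 5 months (3.36% of all genes), and both, Col8a2 and Col11a1, were lower at 15 months (background 2.26% lower and 1.1% higher). At an unadjusted p under 0.05 there were 10, of which 3 were higher. Of the 10, 2 were Col4a3 and Col4a4, which passed the filter only through 2 younger CR libraries. The shares of all genes given here are for adjusted p and are no background for that count. The median log2 fold change was -0.04. In 2 collagens, Col8a2 and Col4a3, young and old CR libraries were fully apart, against 3.26% of all genes. Col4a3 passed the filter only through CR replicates 3 and 4 at 5 months (0.694 and 1.28 FPKM). In all other libraries it was at most 0.101 FPKM, so its separation adds no support for an age difference. Only Col11a1 was called in both diets.

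**Figure D2:**
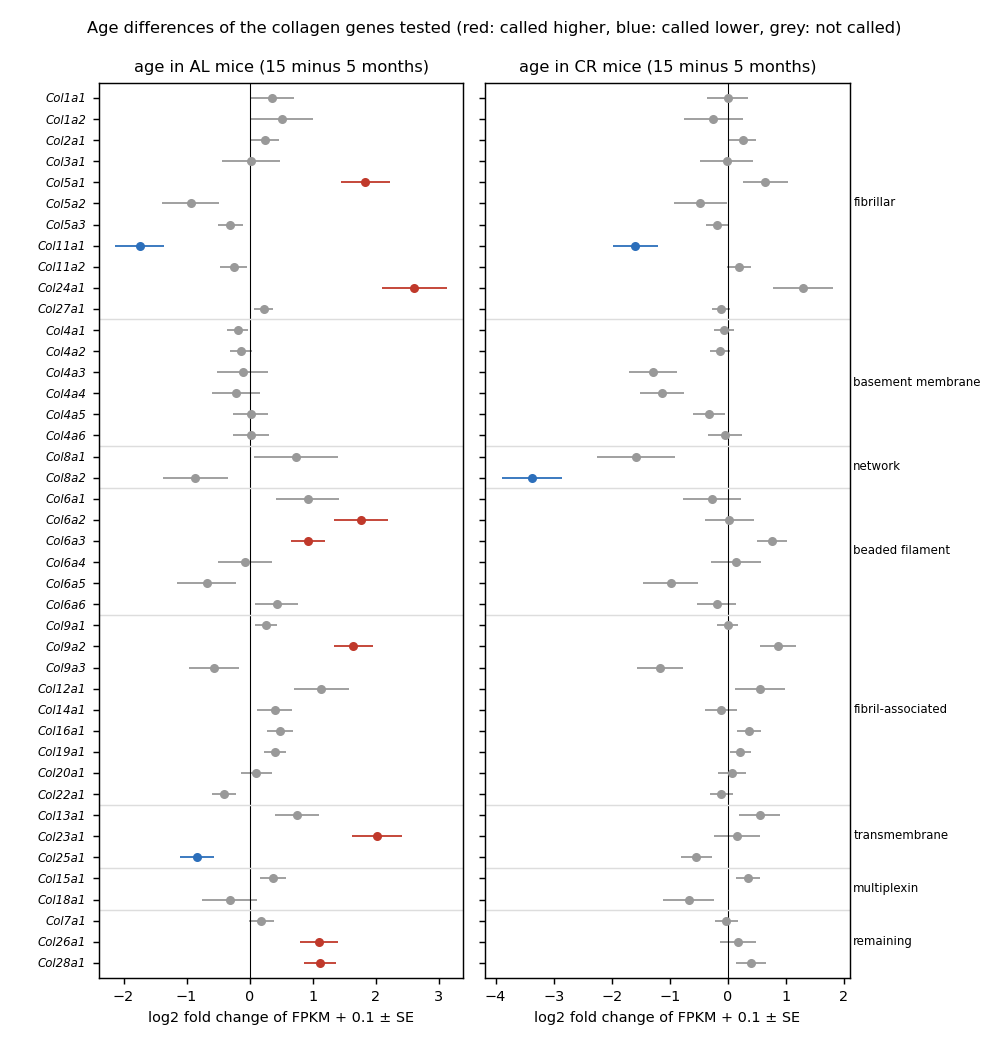
Log2 fold change of FPKM + 0.1 (horizontal axis, ± SE) of the 42 collagens tested (vertical axis, by class) at 15 against 5 months, in AL mice (left) and CR mice (right). Red points were called higher, blue points lower and grey points neither, and the axes of the 2 panels differ in range. Col24a1 lies farthest right in AL mice and Col8a2 farthest left in CR mice, while the type IV chains Col4a1 and Col4a2 lie close to 0 in both.

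Of the fibrillar collagens, Col24a1, Col5a1 and Col11a1 differed with age in AL mice. Col24a1 (chromosome 3, 145292472 to 145552011, GRCm38, GENCODE M21 annotation) encodes a fibrillar chain known from developing bone and eye. It had 0.344, 0.0693, 0.0384, 0.0943 and 0.0628 FPKM in AL mice at 5 months, in replicate order, and a lowest, median and highest value of 0.506, 1.26 and 2.50 at 15 months. The AL ages did not overlap, and the ratio of means was 10.5 (limma log2 fold change 2.61, SE 0.51, adjusted p = 0.00179, exact permutation p = 0.00216). In CR mice it had 0.0760, 0.0840, 0.0936, 0.118 and 0.0175 FPKM at 5 months and 0.0340, 0.323 and 1.32 at 15 months. Those ranges overlapped, with replicates 2, 3 and 4 at 15 months near the younger level and replicates 0, 1 and 5 above it (log2 fold change 1.30, adjusted p = 0.178). Fold changes of genes this low are understated on the log2(FPKM + 0.1) scale.

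Col5a1 (chromosome 2, 27886425 to 28039514) encodes the alpha 1 chain of type V collagen, which starts fibrils and limits their width. Its level was 2.89, 1.63, 1.26, 1.82 and 2.44 FPKM in AL mice at 5 months and 3.36, 8.18 and 10.4 (lowest, median and highest) at 15 months. Every older AL mouse was above every younger one, and the ratio of means was 3.79 (limma log2 fold change 1.83, SE 0.39, adjusted p = 0.00302, exact permutation p = 0.00433). In CR mice it was 3.26, 1.86, 2.68, 3.43 and 1.12 FPKM at 5 months and 1.68, 3.82 and 10.3 at 15 months. There only replicate 5 at 15 months reached the level of most older AL mice (log2 fold change 0.65, adjusted p = 0.401). Of its partner chains, Col5a2 had log2 fold changes of -0.94 in AL and -0.47 in CR mice and Col5a3 of -0.31 and -0.18, none of them called. Exons of Col5a1 overlap 2 noncoding genes on the opposite strand in the annotation, and the library kit does not mark strand, so their reads cannot be told apart there.

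Col11a1 (chromosome 3, 114030540 to 114220718), the alpha 1 chain of type XI collagen, which is best known from cartilage fibrils, went the other way. AL mice at 5 months had 6.37, 11, 7.95, 11.7 and 9.57 FPKM, and those at 15 months 1.46, 2.39 and 4.80 (lowest, median and highest). The AL ages did not overlap, and the older mean was 0.307 times the younger (limma log2 fold change -1.74, SE 0.39, adjusted p = 0.00394, exact permutation p = 0.00433). CR mice had 11.2, 9.58, 5.98, 5.50 and 8.60 FPKM at 5 months and 0.804, 2.77 and 6.68 at 15 months (limma log2 fold change -1.60, SE 0.39, adjusted p = 0.0244, exact permutation p = 0.0130). The highest older CR library, replicate 3 with 6.68 FPKM, lay within the younger range, and the 5 others lay below it. With 1 library left out the CR log2 fold change was -1.87 to -1.29, and it missed the threshold without CR replicate 0, 1 or 4 at 5 months or CR replicate 0 at 15 months (adjusted p up to 0.0672). Without both choroid-rich CR libraries at 5 months the log2 fold change was -1.72 (adjusted p = 0.0814).

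The partner chain Col11a2 (chromosome 17, 34039437 to 34066685) was not called. It had 5.76, 5.14, 6.19, 7.80 and 4.65 FPKM in AL mice at 5 months and 3.79, 4.77 and 7.01 (lowest, median and highest) at 15 months, and 5.49, 5.27, 4.26, 4.60 and 5.46 and 3.64, 5.82 and 8.68 in CR mice. All 4 ranges overlapped (log2 fold change -0.25 in AL and 0.19 in CR mice, adjusted p = 0.409 and 0.679). The other fibrillar genes were not called in any comparison. Col1a1, Col1a2 and Col3a1, the chains of types I and III of fibrous tissue and vessel walls, had 5.23, 10.8 and 2.03 FPKM in AL replicate 1 at 15 months, the library with the highest fibroblast score, against at most 1.61, 2.84 and 0.545 elsewhere. Their AL age log2 fold changes were 0.35, 0.51 and 0.019 with that library and -0.032, -0.0082 and -0.47 without it, so their direction rested on 1 mouse. Col2a1 of cartilage and Col27a1, a widely made fibrillar chain, kept group means of 0.332 to 0.524 and 1.44 to 1.83 FPKM, Col5a2 of 2.29 to 3.79, and Col5a3 of 0.607 to 0.843.

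**Figure D3:**
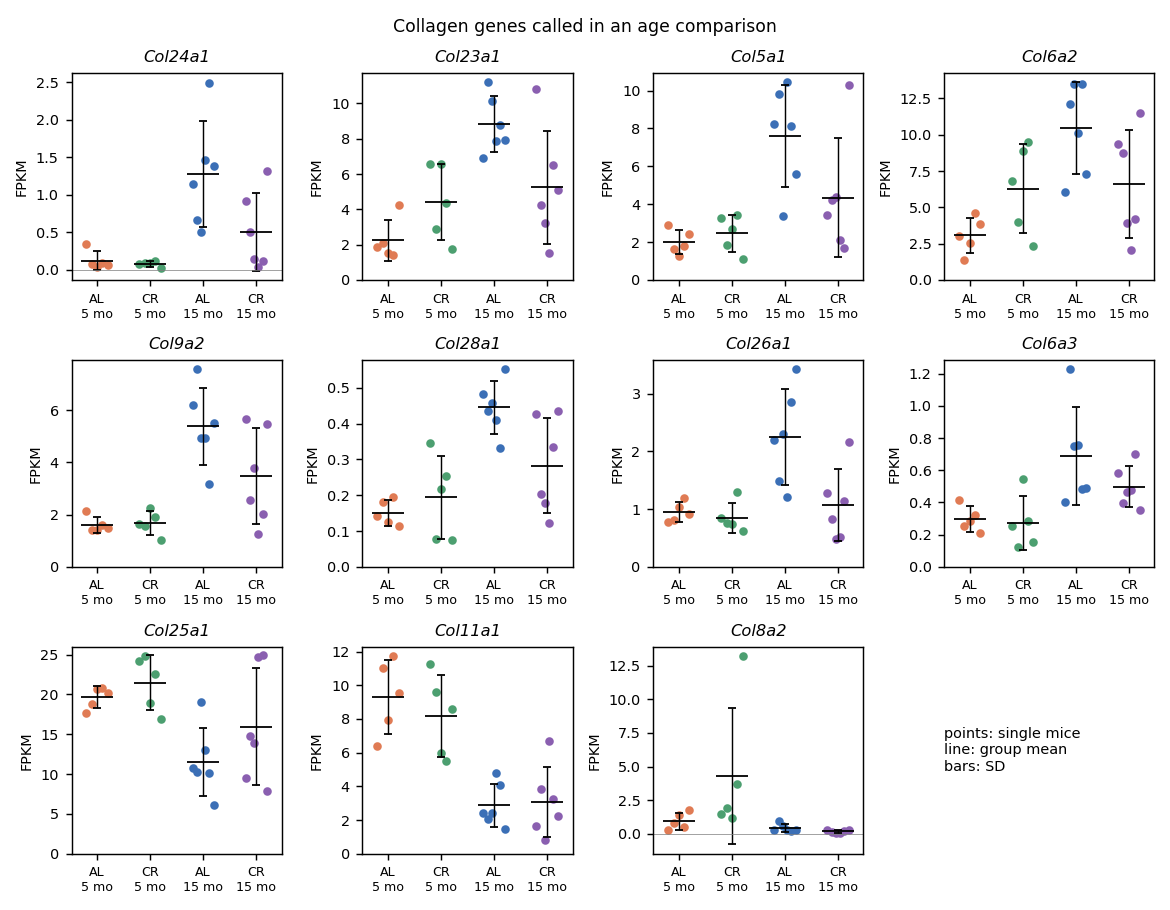
FPKM of the 11 collagens called in an age comparison, by group (horizontal axis), on linear vertical axes. Points are single mice, lines group means and bars SD (n = 5 per group at 5 months and 6 at 15 months). Col24a1, Col23a1, Col5a1, Col6a2, Col9a2, Col28a1 and Col26a1 separate the AL ages upward without overlap and Col11a1 downward, while the CR mice at 15 months spread over both levels.

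None of the basement membrane chains was called in any comparison. Col4a1 and Col4a2 encode the chains of the type IV network found under every blood vessel. They lie head to head on chromosome 8 (Col4a1 from 11198423 to 11312826 on the minus strand, Col4a2 from 11312805 to 11449287 on the plus strand), and their annotated first exons share 22 bases. The shared stretch is shown because both genes start within it, read on the plus strand from RefSeq (GRCm38.p6, chr8:11312805-11312826), with a GC box (GGGCGG, searched on both strands) in capitals:
Col4a1 and Col4a2 start: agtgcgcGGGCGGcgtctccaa
Col4a2 had 12.1, 12.4, 10.9, 16.1 and 11.2 FPKM in AL and 10.8, 12.1, 11.04, 12.9 and 8.43 in CR mice at 5 months, and lowest, median and highest values of 7.56, 11.9 and 16.6 and 7.27, 10.1 and 13.4 at 15 months. Col4a1 had 8.94, 9.44, 8.65, 12.6 and 9.66 and 9.41, 8.76, 7.53, 9.54 and 7.35 FPKM at 5 months, and 6.01, 9 and 11.6 and 5.52, 8.60 and 11.4 at 15 months. For both genes the 4 groups overlapped, and the largest of their 8 age and diet log2 fold changes in size was -0.20 (lowest adjusted p = 0.453). The ratio of Col4a2 to Col4a1 FPKM stayed between 1.09 and 1.47 over the 22 libraries, with a median of 1.27.

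Col4a3 and Col4a4, chains of the specialized type IV network of kidney and lung, were near the filter in most libraries, at 0.0355 to 0.101 and 0.0499 to 0.124 FPKM. In CR replicates 3 and 4 at 5 months they reached 0.694 and 1.28 (Col4a3) and 0.427 and 1.56 FPKM (Col4a4). Both had negative age log2 fold changes in CR mice, -1.29 and -1.13, that did not pass the test (adjusted p = 0.0872 and 0.110). In AL mice Col4a4 was lower in every older mouse (0.0580 to 0.0799 against 0.0825 to 0.123 FPKM, log2 fold change -0.22, adjusted p = 0.713, exact permutation p = 0.00216). Without CR replicates 3 and 4 at 5 months the mean of both genes fell under the filter of the fit. The AL values of Col4a4 all lay near that filter, so their separation adds no support for an age difference. Col4a5 and Col4a6, neighbors on the X chromosome, had group means of 0.905, 1.07, 0.9997 and 0.761 and 0.196, 0.162, 0.249 and 0.151 FPKM in the order AL and CR at 5 months, then AL and CR at 15 months. Their highest values, 2.14 and 0.781 FPKM, came from AL replicate 1 at 15 months, and neither gene was called in any comparison.

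Of the network collagens, Col8a2 fell with age in CR mice by more, on the log2 scale, than any other collagen tested moved in either diet, and it moved with the choroid plexus list. Col8a1 and Col8a2 encode the 2 short chains of type VIII collagen, known from the membrane under the corneal endothelium and from vessel walls. They lie on different chromosomes (Col8a1 on chromosome 16, 57624258 to 57754737, Col8a2 on chromosome 4, 126286793 to 126314330) and were high in the same 2 libraries, so the 250 bases up to each start are shown, read 5′ to 3′ on the gene's strand from RefSeq (GRCm38.p6, chr16:57754738-57754987 minus and chr4:126286544-126286793 plus). The last base of the Col8a2 window is the first base of the gene as annotated. Capitals mark GC boxes (GGGCGG or its reverse complement), which partly overlap each other in Col8a2:
Col8a1: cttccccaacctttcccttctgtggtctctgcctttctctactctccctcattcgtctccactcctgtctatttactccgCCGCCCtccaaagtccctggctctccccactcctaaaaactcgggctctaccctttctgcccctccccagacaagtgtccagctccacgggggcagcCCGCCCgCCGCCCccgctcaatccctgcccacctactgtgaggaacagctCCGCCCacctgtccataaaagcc
Col8a2: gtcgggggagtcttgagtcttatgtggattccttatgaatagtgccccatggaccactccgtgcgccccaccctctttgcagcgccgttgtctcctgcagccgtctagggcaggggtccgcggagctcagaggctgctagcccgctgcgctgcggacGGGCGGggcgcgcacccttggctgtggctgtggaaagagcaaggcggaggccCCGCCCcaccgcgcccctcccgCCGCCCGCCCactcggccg
Each of these windows held 4 matches to the GC box and no match to CCAAT or to TATAAA on either strand. Among all 32851 windows of 250 bases in the RefSeq table, 32.7% held a GC box, 33.8% a CCAAT and 12.4% a TATAAA. The table had 38 windows for 35 of the 44 collagens, of which 22 held a GC box, 13 a CCAAT and 5 a TATAAA. It had none for Col1a1, Col2a1, Col5a2, Col4a3, Col9a3, Col12a1, Col14a1, Col22a1 and Col26a1.

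Col8a2 had 1.49, 1.92, 1.18, 3.73 and 13.2 FPKM in CR mice at 5 months, in replicate order, and 0.0673, 0.210 and 0.320 (lowest, median and highest) at 15 months. The 2 ages did not overlap, and the older mean was 0.0459 times the younger (limma log2 fold change -3.38, SE 0.52, adjusted p = 0.000865, exact permutation p = 0.00216). In AL mice it had 0.302, 0.783, 1.44, 0.485 and 1.75 FPKM at 5 months and 0.236, 0.300 and 0.977 at 15 months. Those ranges overlapped (log2 fold change -0.86, SE 0.52, adjusted p = 0.243). Without CR replicates 3 and 4 at 5 months, an alternative chosen after seeing the data, the log2 fold change in CR mice was -2.51 and stayed called (adjusted p = 0.00998). With the choroid plexus score as a covariate it was -0.72 (adjusted p = 0.597), and with the region score -3.36 (adjusted p = 0.0377). The choroid plexus list fell in the same comparison, its summed level not overlapping between the ages of CR mice, and its part in the Col8a2 difference was not tested beyond this covariate.

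Col8a1 was high in the same libraries but did not pass the test. It had 0.403, 0.340, 0.568, 2.12 and 12.8 FPKM in CR mice at 5 months and 0.0959, 0.421 and 0.957 (lowest, median and highest) at 15 months, with 0.214, 0.281, 0.346, 0.174 and 0.758 and 0.313, 0.546 and 1.19 in AL mice. The older CR range overlapped the younger one (log2 fold change -1.59, SE 0.67, adjusted p = 0.210, exact permutation p = 0.106), and without the 2 choroid-rich libraries the value was -0.25. In AL mice its log2 fold change was positive, 0.74 (adjusted p = 0.459). With the choroid plexus score as a covariate the AL value rose to 2.40 and was called (adjusted p = 0.00503). The ratio of Col8a2 to Col8a1 FPKM, a description, was 1.41 to 4.17 in AL and 1.03 to 5.64 in CR mice at 5 months, and 0.229 to 1.45 and 0.301 to 0.702 at 15 months. The AL ranges of the 2 ages met only at their edges. Col10a1, the network collagen of growth plate cartilage, was not tested and reached at most 0.693 FPKM.

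**Figure D4:**
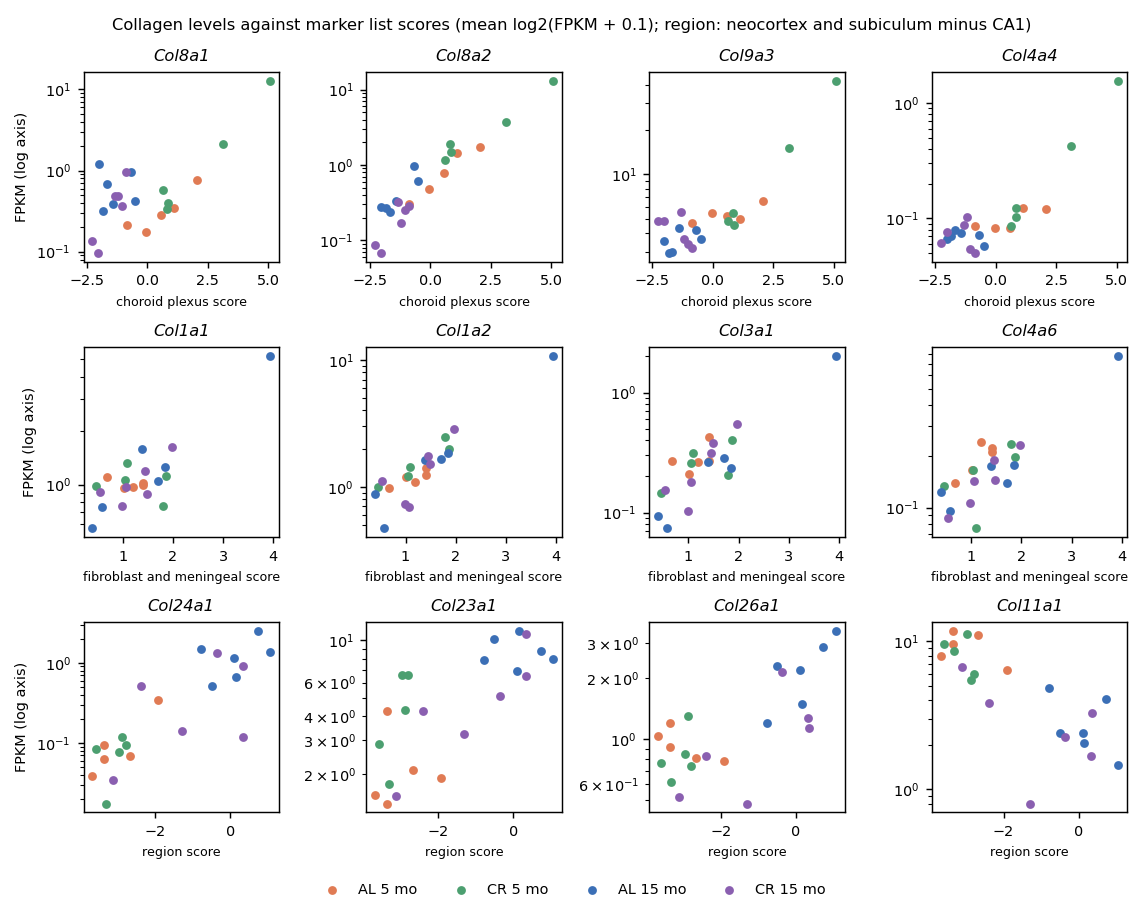
FPKM on a log axis (vertical) of 12 collagens, chosen after their values were seen, against the choroid plexus score (top row), the fibroblast and meningeal score (middle row) and the region score (bottom row), with 1 point per library colored by group. Col8a2 climbs along the whole range of the choroid plexus score, Col8a1, Col9a3 and Col4a4 stand high at the 2 highest scores, AL replicate 1 at 15 months lies alone at the right of the middle row, and in the bottom row the AL mice form 1 cluster at each age.

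Type VI collagen forms beaded filaments between cells and basement membranes from its alpha 1, alpha 2 and alpha 3 chains. The alpha 1 chain gene Col6a1 (chromosome 10, 76708792 to 76726168) had 8.75, 6.48, 6.87, 13.3 and 16.1 FPKM in AL and 21.9, 12.7, 26.2, 23.1 and 7.93 in CR mice at 5 months, and 5.46, 14.8 and 59.4 (lowest, median and highest) and 6.77, 18 and 21.9 at 15 months. AL replicates 2 and 4 at 15 months, with 59.4 and 40.6 FPKM, were far above the rest, and the groups overlapped (AL log2 fold change 0.92, SE 0.50, adjusted p = 0.197, and -0.27 in CR mice). Col6a2 (chromosome 10, 76595762 to 76623630), its neighbor and the alpha 2 chain gene, had 3.004, 1.41, 2.53, 4.58 and 3.87 FPKM in AL mice at 5 months and 6.07, 11.1 and 13.5 at 15 months. These did not overlap, at a ratio of means of 3.39 (limma log2 fold change 1.77, SE 0.42, adjusted p = 0.00638, exact permutation p = 0.00216). In CR mice it had 6.80, 3.96, 8.88, 9.48 and 2.35 and 2.08, 6.47 and 11.5 FPKM at the 2 ages, almost the same mean (log2 fold change 0.021, SE 0.42). The younger CR mice already lay mostly above the younger AL mice, in 4 of 5 above their median.

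Col6a3, the alpha 3 chain gene, was far lower, so that the ratio of Col6a2 to Col6a3 FPKM ran from 4.36 to 33.3. It rose in AL mice from 0.297 ± 0.0794 (SD, n = 5) to 0.686 ± 0.304 FPKM (n = 6), with overlap (log2 fold change 0.93, SE 0.26, adjusted p = 0.0178), and was 0.272 ± 0.168 and 0.497 ± 0.128 FPKM in CR mice (log2 fold change 0.76, adjusted p = 0.123). Without AL replicate 4 at 5 months the AL call was lost (adjusted p = 0.0514). Col6a4, Col6a5 and Col6a6, which can take the place of the alpha 3 chain, had group means of 0.151 to 0.653 FPKM and were not called in any comparison.

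Among the fibril-associated collagens, which sit on the surface of fibrils, only Col9a2 was called. Col9a2 (chromosome 4, 121039385 to 121055322), the alpha 2 chain of type IX collagen, had 2.13, 1.42, 1.41, 1.61 and 1.49 FPKM in AL mice at 5 months and 3.18, 5.22 and 7.58 (lowest, median and highest) at 15 months. Every older AL mouse exceeded every younger one, at a ratio of means of 3.34 (limma log2 fold change 1.65, SE 0.31, adjusted p = 0.00128, exact permutation p = 0.00216). CR mice had 1.65, 1.55, 2.26, 1.91 and 1.01 and 1.25, 3.17 and 5.67 FPKM, which overlapped (log2 fold change 0.86, SE 0.31, adjusted p = 0.134). The partner chain Col9a3 (chromosome 2, 180597790 to 180622189) went the other way, with 4.70, 5.24, 5.01, 5.47 and 6.58 FPKM in AL mice at 5 months and 2.95, 3.62 and 4.32 at 15 months. Although these ranges did not overlap (exact permutation p = 0.00433), limma did not call it (log2 fold change -0.57, adjusted p = 0.319). The fit shares 1 spread over all groups, and CR mice at 5 months had 4.53, 5.48, 4.82, 15.1 and 42.7 FPKM, the 2 last being the choroid-rich replicates 3 and 4. Without those 2 libraries the same AL log2 fold change was called (adjusted p = 0.0110). Older CR mice had 3.19, 4.27 and 5.58 FPKM (log2 fold change -1.17, or -0.24 without the 2 libraries, not called in either fit). Exons of Col9a3 overlap Tcfl5 on the opposite strand, and their reads cannot be told apart there. The third chain, Col9a1, had group means of 0.172, 0.112, 0.232 and 0.113 FPKM in the order AL and CR at 5 months, then AL and CR at 15 months.

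Col19a1 (chromosome 1, 24261890 to 24587472), a collagen known to be made by hippocampal interneurons, was the most abundant of this class. It had 6.995, 5.98, 5.56, 6.99 and 6.71 FPKM in AL and 7.97, 6.23, 4.93, 7.40 and 4.48 in CR mice at 5 months, and 6.73, 8.65 and 10.8 (lowest, median and highest) and 5.03, 6.95 and 10.3 at 15 months. The groups overlapped, and the AL age log2 fold change of 0.41 (SE 0.17, exact permutation p = 0.0346) had an adjusted p of 0.102. Col12a1, Col14a1 and Col16a1, which link fibrils to their surroundings, had positive AL log2 fold changes of 1.14, 0.40 and 0.49 that did not pass the test (adjusted p = 0.0673, 0.317 and 0.0955). Col20a1 and Col22a1, of which the second is known from tissue junctions, had means of 1.96 and 0.725 FPKM over all libraries and AL log2 fold changes of 0.11 and -0.41, also not called.

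The transmembrane collagens held both a gene that rose and a gene that fell in older AL mice. Col23a1 (chromosome 11, 51289920 to 51583918), a membrane-anchored collagen that can be shed, had 1.89, 2.09, 1.55, 1.40 and 4.25 FPKM in AL mice at 5 months and 6.93, 8.37 and 11.2 (lowest, median and highest) at 15 months. The ages did not overlap, at a ratio of means of 3.94 (limma log2 fold change 2.03, SE 0.40, adjusted p = 0.00173, exact permutation p = 0.00216). In CR mice it had 6.58, 2.88, 6.56, 4.33 and 1.76 FPKM at 5 months and 1.53, 4.66 and 10.8 at 15 months, spread over the same range (log2 fold change 0.17, SE 0.40, adjusted p = 0.871). Its age by diet interaction was -1.86 (SE 0.56, unadjusted p = 0.00337, adjusted p = 0.608).

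Col25a1 (chromosome 3, 130131501 to 130599877) is made by neurons, and its shed part was first found in amyloid plaques. It had 17.7, 18.8, 20.7, 20.8 and 20.2 FPKM in AL mice at 5 months and 6.07, 10.5 and 19 (lowest, median and highest) at 15 months. Only the highest older mouse, replicate 2 with 19 FPKM, reached the younger range (log2 fold change -0.84, SE 0.27, adjusted p = 0.0329, exact permutation p = 0.00866). This call was the least firm of the 10, because it was lost in 8 of the 22 fits that left out 1 library (AL replicates 1, 2, 3 and 4 at 5 months and 0, 1, 4 and 5 at 15 months, adjusted p up to 0.0741). It was also lost with the region, the choroid plexus or the fibroblast and meningeal score as a covariate. CR mice had 24.2, 24.9, 18.96, 22.5 and 16.9 FPKM at 5 months and 7.87, 14.4 and 25.02 at 15 months, where replicates 3 and 4 kept the younger level and replicates 0 and 5 were under 10 FPKM (log2 fold change -0.54, adjusted p = 0.300). Col13a1, a collagen of the neuromuscular junction, had group means of 0.290, 0.286, 0.653 and 0.485 FPKM in the order given above and was not called. Col17a1 of hemidesmosomes was not tested and did not exceed 0.179 FPKM.

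The multiplexins Col15a1 and Col18a1 belong to vascular and epithelial basement membranes, and Col18a1 is the source of endostatin. Col18a1 had 1.32, 1.15, 1.15, 1.21 and 1.44 FPKM in AL and 1.26, 1.26, 1.21, 1.52 and 2.96 in CR mice at 5 months, and 0.405, 0.828 and 2.92 (lowest, median and highest) and 0.650, 0.719 and 2.86 at 15 months. The younger mice apart from CR replicate 4 lay between 1.15 and 1.52, most older ones lay below them, and AL replicates 1 and 2 and CR replicate 4 at 15 months lay above. The log2 fold changes with age were -0.32 in AL and -0.68 in CR mice (adjusted p = 0.632 and 0.432). Col15a1 had 1.46, 0.988, 0.618, 0.564 and 0.565 and 0.473, 0.381, 0.513, 0.713 and 0.516 FPKM at 5 months, and 0.891, 1.02 and 1.23 and 0.488, 0.663 and 0.941 at 15 months. Its log2 fold change in CR against AL mice was -0.53 at 5 months and -0.56 at 15 months, with overlap at each age, and neither passed the adjusted test (unadjusted p = 0.0238 and 0.0106, exact permutation p = 0.0873 and 0.00433).

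Of the 3 genes in no larger class, Col26a1 and Col28a1 rose with age in AL mice. Col26a1 (chromosome 5, 136741759 to 136883209), a collagen known from reproductive tissues, had 0.783, 0.806, 1.03, 1.20 and 0.917 FPKM in AL mice at 5 months and 1.21, 2.24 and 3.43 (lowest, median and highest) at 15 months. The AL ages did not overlap, though the lowest older value, 1.21 FPKM, was close to the highest younger one, 1.20 (limma log2 fold change 1.10, SE 0.31, adjusted p = 0.0156, exact permutation p = 0.00433). CR mice had 0.845, 0.760, 0.735, 1.30 and 0.616 and 0.482, 0.987 and 2.15 FPKM (log2 fold change 0.17, adjusted p = 0.814). Col28a1 (chromosome 6, 7997808 to 8192617), a collagen with von Willebrand factor A domains known from peripheral nerve, had 0.141, 0.181, 0.124, 0.196 and 0.113 FPKM in AL mice at 5 months and 0.333, 0.447 and 0.554 at 15 months, without overlap (limma log2 fold change 1.12, SE 0.26, adjusted p = 0.00468, exact permutation p = 0.00216). CR mice had 0.347, 0.0791, 0.217, 0.253 and 0.0753 and 0.122, 0.269 and 0.435 FPKM, overlapping (log2 fold change 0.40, adjusted p = 0.430). Col7a1, the anchoring fibril collagen, was at 0.466, 0.549, 0.285, 0.650 and 0.375 and 0.382, 0.403, 0.451, 0.604 and 0.274 FPKM in AL and CR mice at 5 months, and at 0.326, 0.546 and 0.713 and 0.264, 0.443 and 0.491 at 15 months. Its groups overlapped throughout and it was not called.

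The 2 diets were then compared at each age. At 15 months no collagen was called between CR and AL mice by limma (0.742% of all genes, with 0.33% higher and 0.412% lower). At an unadjusted p under 0.05 there were 8 of 42 (background 17.1%), all lower in CR mice. They were Col26a1 (log2 fold change -1.09, adjusted p = 0.0782), Col9a1 (-0.63, 0.0800), Col24a1 (-1.52, 0.131), Col15a1 (-0.56), Col9a2 (-0.76), Col5a1 (-0.95), Col23a1 (-0.95) and Col28a1 (-0.58). Of these, 6 also rose with age in AL mice, a comparison that shares the older AL libraries, so the 2 sets of values are not independent. The median over the 42 collagens was -0.28 and that of all genes tested -0.0012. The 0 calls at an adjusted p under 0.05 became 3 (Col24a1, Col26a1 and Col9a1) without CR replicate 0, where 4.31% of all genes were called, and 4 (these and Col5a1) without CR replicate 5, where 2.9% were, with adjusted p for Col26a1 of 0.0382 and 0.0205. The region score of these 2 libraries was 0.33 and -0.36, within the range of older AL mice, while those of CR replicates 1, 2 and 3 were -2.39, -1.30 and -3.11. CR replicate 4 had a region score of 0.34 and a Col24a1 level of 0.120 FPKM. Whether the region score has a part in these calls was not tested.

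At 5 months no collagen was called between the diets, nor was any gene at all (0%). At an unadjusted p under 0.05 there were 7 of 42 collagens (background 4.65%), namely Col8a2 (log2 fold change 1.69, unadjusted p = 0.00528, adjusted p = 0.922), Col4a3 (1.05), Col8a1 (1.68), Col4a4 (0.92), Col6a2 (0.94) and Col23a1 (0.91), higher in CR mice, and Col15a1 (-0.53), lower. Without the 2 choroid-rich CR libraries Col8a2 had 0.83 and Col8a1 0.34. Col4a3 and Col4a4 passed the filter only through those 2 libraries, in the group where they were higher. Their place among the 7 therefore adds no support for a difference between the diets. The age by diet interaction, which asks whether age differed between the diets, called no collagen and no gene (0%). At an unadjusted p under 0.05 it gave 6 of 42 collagens (background 7.66%), all negative: Col8a2 (-2.51, SE 0.73, unadjusted p = 0.00261), Col23a1 (-1.86), Col6a2 (-1.75), Col8a1 (-2.32), Col5a1 (-1.19) and Col26a1 (-0.92). Without the 2 choroid-rich CR libraries the interaction of Col8a2 was -1.65 (unadjusted p = 0.0136) and that of Col8a1 -0.99 (unadjusted p = 0.136). With all libraries the adjusted p was 0.608 or more for each, so no single collagen was shown to differ between the diets in its course with age.

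With the region score added to the model, none of the 10 AL calls remained, and no gene of the 16978 was called either, at 2107 genes with an unadjusted p under 0.05. The score did not overlap between the AL ages, so the model can separate age and score only in part, and what each contributes was not tested. All 10 collagens kept their sign. Col5a1 kept the largest share, with 1.42 (adjusted p = 0.378) of 1.83, followed by Col6a3 (0.63 of 0.93) and Col6a2 (1.10 of 1.77). Col26a1 fell to 0.11 and Col25a1 to -0.058. With the choroid plexus score in the model, 8 of the 10 AL calls stayed, all but Col6a3 (adjusted p = 0.0974) and Col25a1 (0.0943), while Col8a1 and Col14a1 were called in addition (Col14a1 0.95, adjusted p = 0.0190). In CR mice none was called with that score. With the fibroblast and meningeal score in the model, only Col25a1 of the 10 AL calls was lost.

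**Figure D5:**
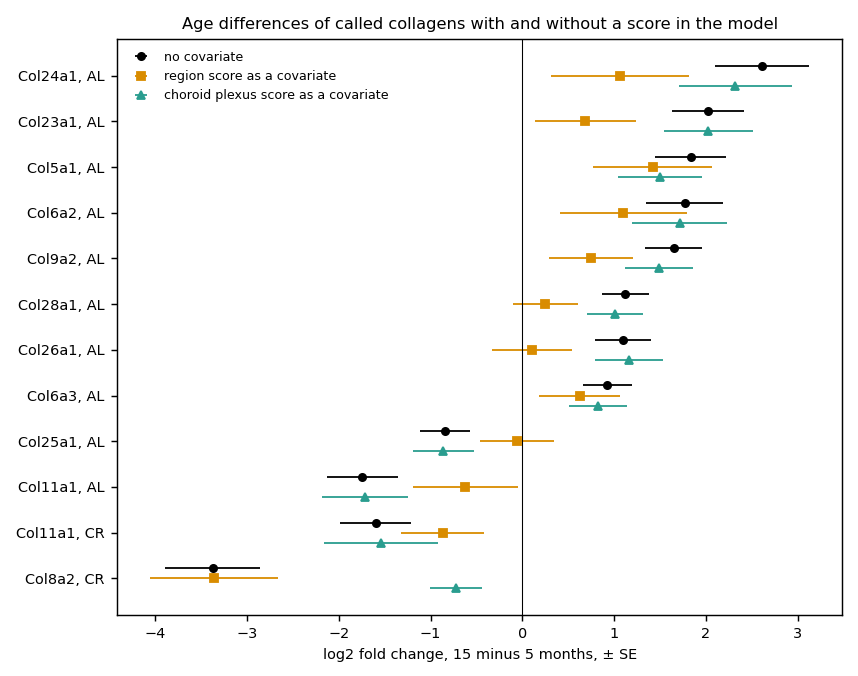
Log2 fold change at 15 against 5 months (horizontal axis, ± SE) of the 12 called collagen comparisons (vertical axis, with the diet), fitted with no covariate (black), the region score (orange) or the choroid plexus score (green). The region score draws the AL values toward 0, most of all for Col26a1 and Col25a1, and the choroid plexus score does so for Col8a2 in CR mice.

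The genes that make, handle and bind collagens were examined in 6 lists with 71 genes in the matrix, 65 of them tested. Beside the called genes named here, the share of all genes called was 20.6% with age in AL mice and 0.742% between the diets at 15 months. Of 12 genes for proline and lysine hydroxylation, Plod1, a lysyl hydroxylase, fell in AL mice with age (-0.43), and P4ha1, a catalytic subunit of prolyl hydroxylase, was higher in CR mice at 15 months (0.53). Of 7 genes for glycosylation, folding and export, Fkbp14, a prolyl isomerase of the endoplasmic reticulum, fell with age in AL mice (-0.57) and was higher in CR mice at 15 months (0.54), and Tmem38b, an ion channel of that organelle, fell with age in AL mice (-0.60). None of the 12 genes tested for propeptide removal and crosslinking, the 11 for degradation and its inhibitors or the 7 collagen receptors was called in any comparison. Among 16 other basement membrane genes, the laminin chain genes Lama4 (1.46) and Lama3 (0.82) rose and Lamb1 (-0.67) fell in AL mice. All values in this paragraph are limma log2 fold changes of genes with an adjusted p under 0.05.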

How the data were processed

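Hippocampal CA1 mRNA of 22 mice was measured, with 1 library per mouse. The values are FPKM as deposited by the authors, who ran TopHat against mm10 on paired-end reads and Picard to take out duplicates. Cufflinks tools then gave FPKM per gene, with its corrections for biased fragments and multiply mapped reads switched on. Tool versions and the annotation release are not given in the sources used here. Reads were not used here, and the depth of each library is unknown, because in 3 pairs of libraries at most 0.207% of the low genes lay on a common ratio. No interval for counting error is therefore given, and precision is judged from how far mice of a group differed.

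Genes with a mean of at least 0.1 FPKM (16978) were tested as log2(FPKM + 0.1). One limma model (limma 3.58.1, R 4.3.3, eBayes with a trend) held all 4 groups, with two-sided tests, Benjamini-Hochberg adjustment over all genes and a threshold of 0.05. Log2 fold changes and their SE are from this fit. Exact permutation tests were two-sided, over all divisions of the libraries of 2 groups (462 for 5 against 6 mice, with a smallest p of 0.00216). Other steps ran in Python 3.11.15 with scipy 1.17.1, pandas 2.3.3 and numpy 2.4.6, and plots were drawn with matplotlib 3.10.9. The limma fit was tested on simulated data for the age comparison in AL mice. Coordinates are from GENCODE M21 (GRCm38, the sequence of mm10), and sequences from RefSeq (GRCm38.p6).

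The members, classes and lists were chosen with earlier results of these data known, and no test was made over a list. Not every result of these lists is reported here. Members called in a comparison (the 8 with the largest change where more than 8 were called) and the 2 most abundant of each class were described by their values in each mouse. Alternatives were other pseudocounts (1 and 0.01), filters (above 0 in any library, and a mean of at least 1 FPKM), scalings, a fit without the trend, a separate fit of 2 groups, a replicate block, 3 marker scores as covariates and each library left out. Chosen after seeing the data was leaving out CR replicates 3 and 4 at 5 months together. Reads of genes with overlapping exons (13 of the 44 collagens) cannot be told apart by an unstranded kit.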

Additional observations from a re-analysis of the deposited data

Results flagged for a closer look

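Each of the 42 collagens tested was examined in each of the 4 groups for 1 mouse lying far from the others, by the gap to its nearest neighbor relative to the range of the group (Dixon's test at 95% on log2(FPKM + 0.1)). Of 168 combinations, 10 were flagged, a number near what chance alone gives, about 1 in 20. In AL mice at 15 months, replicate 1 was high for Col3a1 (2.03 FPKM), Col4a5 (2.14) and Col4a6 (0.781), and it is also the library with the highest fibroblast and meningeal score (3.94). In CR mice at 5 months, replicate 4, the library with the highest choroid plexus score (5.07), was high for Col18a1 (2.96 FPKM) and low for Col16a1 (2.25 FPKM), and replicate 1 was low for Col6a4 (0.0649 FPKM). In CR mice at 15 months, replicate 4 was high for Col12a1 (2.92 FPKM) and Col18a1 (2.86 FPKM). In AL mice at 5 months, replicate 3 was high for Col6a4 (1.40 FPKM) and replicate 1 low for Col27a1 (1.20 FPKM). The part of cell mixture in these values was not tested.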

How the results depend on the processing

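The 10 collagens called with age in AL mice numbered 7 to 12 over all alternatives except the region score as a covariate, which gave 0 (7 with a mean of at least 1 FPKM, where 22 collagens were tested, and 8 to 12 with 1 library left out). The 2 called with age in CR mice became 1 in a separate fit of the 2 groups, 1 with the region score, 0 with the choroid plexus score, 1 without CR replicates 3 and 4 at 5 months together, and 1 to 3 with 1 library left out. The 0 at 15 months between the diets became 1 (Col26a1) with the replicate block, 1 (Col8a2) with the choroid plexus score, and 0 to 4 with 1 library left out (3 without CR replicate 0 and 4 without CR replicate 5 at 15 months). The counts of 0 at 5 months and for the interaction were 0 under every alternative run. No called log2 fold change turned its direction under any of the 34 or 35 alternatives, and pseudocounts, scalings and the fit without the trend left each of the 12 called. The number of a library did not pair mice: over 31 pairs with the same number the correlation of deviations from the group mean was -0.139 to 0.163, above 0.1 in 2, and the paired fit gave 10, 2, 1, 0 and 0 calls. The depth of each library is unknown, so the counting error of collagens under 1 FPKM, such as Col24a1, could not be given. The cause of these shifts was not tested.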
